A study of Homo sapiens with 19 samples.

Results

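ERRα occupancy in lapatinib-resistant SKBr3 cells was compared directly with ERRα occupancy in SKBr3 cells stimulated with heregulin (HRG). All 39777 peaks of the LRSKBr3 list and all 37195 peaks of the SKBr3 HRG list were used, and a peak was called shared when it overlapped a peak of the other list by at least 1 bp. Merging both lists gave 51220 sites. Over the 8 ERRα ChIP-seq lists of the study, merging gave 90452 sites, of which 50050 held a peak of the LRSKBr3 or HRG list.

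SKBr3 is an established breast cancer line with amplified HER2. For the HRG list, SKBr3 cells were starved of serum for 24 h and treated with 100 µM HRG for 90 min, the concentration being that given in the labels. SKBr3 cells treated with EGF in place of HRG, at the same concentration and time after the same starvation, gave a further list used for overlaps. The breast cancer line BT-474, starved likewise and given vehicle or 100 µM HRG for 90 min, gave lists used for overlaps too. LRSKBr3 cells were derived from SKBr3 by long exposure to lapatinib and were kept in 2 µM lapatinib and medium with serum. The comparison therefore sets a ligand in starved, drug-naive cells against a drug in a resistant line grown in serum. Ligand, drug, serum, line history and experiment changed together and cannot be told apart. Each experiment had its own list made without ligand or drug, namely starved SKBr3 cells given vehicle and untreated parental pSKBr3 cells. Each of these SKBr3 and LRSKBr3 conditions had 2 ChIP libraries and 1 input library but a single pooled list, so that no spread between replicates could be computed and no change was tested. Intervals in brackets are 95% Wilson intervals and cover counting error only. Tag counts are not part of a list, so that the depth of each library is unknown.

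ERRα is an orphan nuclear receptor that binds DNA as a monomer or dimer at the ERR response element (ERRE) and is known for driving genes of mitochondrial energy metabolism. HRG is a ligand of HER3, which pairs with HER2 and signals through the MAPK and PI3K pathways, while lapatinib blocks the kinases of EGFR and HER2. AP-1 factors, dimers of FOS and JUN proteins, are well-known end points of MAPK signalling and bind the TPA response element.

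The sequences below show the words that set the classes of sites apart. Capitals mark the ERRE word TCAAGGTCA or the AP-1 word TGACTCA, with 25 bases to each side, read 5′ to 3′ on the strand of the word in GRCh37. Except for ESRRA, they come from the strongest distal peaks with the word within 100 bp of the centre, leaving out exons, words in an Alu-like context and a chromosome not printed here. The first sequence, at chr11:64072325-64072383, lies in a peak of both lists, 615 bp from the nearest start of ESRRA, the gene that encodes ERRα itself.
ESRRA: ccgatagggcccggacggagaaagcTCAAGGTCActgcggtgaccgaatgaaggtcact
The next is among the top-scoring distal ERRE sites that were shared and also called in vehicle and pSKBr3 cells, at chr6:19757417-19757475, with ID4 as the nearest gene.
ID4: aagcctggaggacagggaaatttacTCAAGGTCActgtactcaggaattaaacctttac
LRSKBr3 peaks without an HRG peak gave the following ERRE words in introns of BTBD10, at chr11:13429204-13429262, and GARNL3, at chr9:130074119-130074177, and both peaks were also called in pSKBr3, vehicle and EGF-treated cells.
BTBD10: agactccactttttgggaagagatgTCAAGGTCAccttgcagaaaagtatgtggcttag
GARNL3: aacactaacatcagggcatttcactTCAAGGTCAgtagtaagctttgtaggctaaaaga
HRG peaks without an LRSKBr3 peak gave the following AP-1 words, which are intergenic and have RET (chr10:43522092-43522148), ZPBP (chr7:50237304-50237360) and CDK8 (chr13:27031572-27031628) as nearest genes.
RET: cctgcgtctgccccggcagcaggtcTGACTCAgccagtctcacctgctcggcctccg
ZPBP: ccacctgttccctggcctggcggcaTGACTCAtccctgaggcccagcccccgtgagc
CDK8: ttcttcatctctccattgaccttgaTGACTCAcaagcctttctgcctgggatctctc
The CDK8 window also holds an ERRE word, on the other strand, and the RET and CDK8 peaks were called in vehicle and pSKBr3 cells as well, whereas the ZPBP peak was called in neither. Shared peaks with neither a vehicle nor a pSKBr3 peak gave AP-1 words whose nearest genes are SHH (chr7:155744511-155744567) and LGR6 (chr1:202169576-202169632).
SHH: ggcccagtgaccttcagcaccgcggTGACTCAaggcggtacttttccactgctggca
LGR6: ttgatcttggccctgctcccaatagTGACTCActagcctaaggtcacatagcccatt

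The resistant and the HRG-stimulated cells had more sites in common than either had alone. Of the 51220 sites, 24326 (47.5%, 47.1–47.9) were shared, 14573 (28.5%, 28.1–28.8) were LRSKBr3-only and 12321 (24.1%, 23.7–24.4) were HRG-only. Counted as peaks, 25204 LRSKBr3 peaks (63.4%, 62.9–63.8) had an HRG peak and 24874 HRG peaks (66.9%, 66.4–67.4) had an LRSKBr3 peak. Shared sites made up 44.6% of all sites when LRSKBr3 was set against its own parental list, 43% against EGF-treated SKBr3 and 42.8% against vehicle. The HRG list shared 35.3% of sites with vehicle, the lowest value among these pairs, and 44.5% with EGF. Unequal list sizes limit these shares, and the pSKBr3 list was the shortest of the lists compared, with 22539 peaks. Counted as peaks the order turned, with an LRSKBr3 peak at 87.3% of pSKBr3 peaks and 66.9% of HRG peaks. Shared peaks lay on the same spot: the HRG peak covered a median of 90.3% of the LRSKBr3 peak, the centres were a median of 109 bp apart, and 115 shared LRSKBr3 peaks were overlapped over less than 10% of their width. Conversely, 7.23% of LRSKBr3-only and 7.99% of HRG-only peaks had a peak of the other list within 1 kb.

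Strength separated shared from list-specific peaks. The score deposited with a peak is −10 log10 of its P value and was ranked within its own list as a percentile. Shared LRSKBr3 peaks had a median percentile of 65.4, LRSKBr3-only peaks of 27.5 and HRG-only peaks of 27.3. The share with an overlapping peak in the other list rose from 28.5% in the weakest decile of the LRSKBr3 list to 98% in the strongest, and from 34.3% to 98.9% in the HRG list. Peaks in the top quartile of a list that the other list lacked numbered 502 for LRSKBr3 and 483 for HRG. A peak absent from a list can have missed the P cutoff of 1e-05 by little, so that its absence from the list does not show absent binding.

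**Figure D1:**
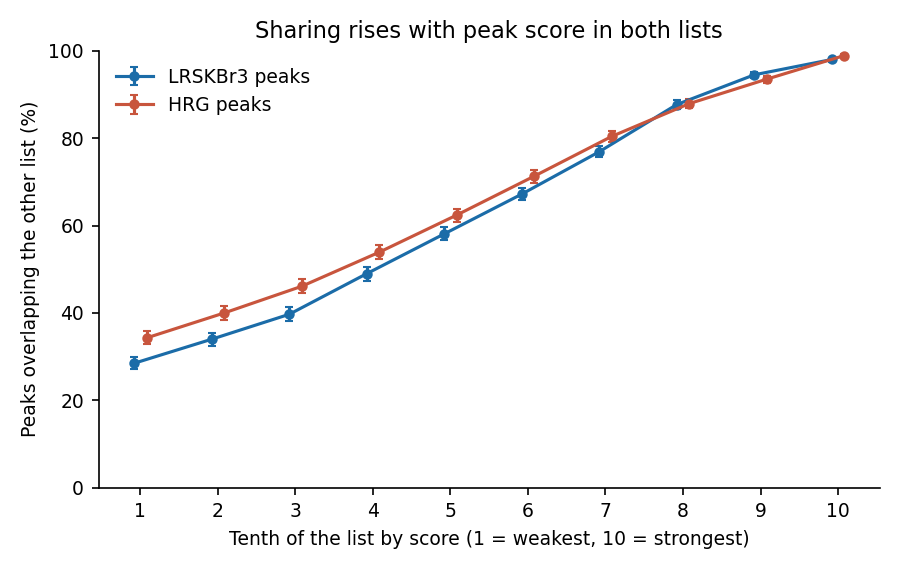
The share of peaks (y axis, %) that overlapped the other list is plotted against the decile of the peak's own list by score (x axis, 1 weakest to 10 strongest), for LRSKBr3 peaks in blue and HRG peaks in red. Bars are 95% Wilson intervals, and the curves climb from 28.5% and 34.3% to 98% and 98.9%.

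Promoter peaks, with a centre within 1 kb of the start of a protein-coding gene, were most frequent among shared peaks and rarest among HRG-only peaks. They made up 21% (20.5–21.6) of shared LRSKBr3 peaks, 13.7% (13.2–14.3) of LRSKBr3-only peaks and 7.61% (7.16–8.09) of HRG-only peaks, which was 938 peaks. Among the 20000 strongest peaks of each list the first of these gaps nearly closed, with 22.9% of shared and 21% of LRSKBr3-only peaks, against 10.1% of HRG-only peaks. With the classes of the whole lists it did not close, since promoters were 24.5% of shared and 12.9% of LRSKBr3-only peaks in the strongest quartile of the LRSKBr3 list. HRG-only peaks lay in intergenic sequence in 50.1% and in introns in 45.5% of cases, against 41.1% and 48.9% of shared peaks. Their median distance to a start was 28815 bp, compared with 24697 bp for LRSKBr3-only and 13514 bp for shared peaks. The mean GC content around the centre was 51.5% for shared, 47.5% for LRSKBr3-only and 48.2% for HRG-only peaks.

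The AP-1 word was most frequent in HRG-only peaks and the ERRE in LRSKBr3-only peaks, though a minority of each class held either. TGACTCA, or TGAGTCA as read on the other strand, stood within 100 bp of the centre of 14.9% (14.3–15.5) of HRG-only peaks, 6.78% (6.47–7.09) of shared peaks and 3.86% (3.56–4.18) of LRSKBr3-only peaks. Windows of the same width placed 2 kb to each side held it in 3.19%, 3.29% and 3.33% of cases. LRSKBr3-only peaks thus lay close to their flanks in this word, and HRG-only peaks far above them. TCAAGGTCA, read on both strands, went the other way, with 8.58% (8.14–9.05) of LRSKBr3-only, 6.71% (6.41–7.03) of shared and 3.36% (3.06–3.69) of HRG-only peaks, over flanks of 0.285%, 0.343% and 0.361%. Even in HRG-only peaks, the ERRE was more frequent at the centre than in the flanks. Most peaks held neither word, from 82.4% of HRG-only to 87.9% of LRSKBr3-only peaks, and both words stood together in 75 HRG-only peaks (0.609%, 0.486–0.762) and 50 LRSKBr3-only peaks (0.343%, 0.26–0.452).

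**Figure D2:**
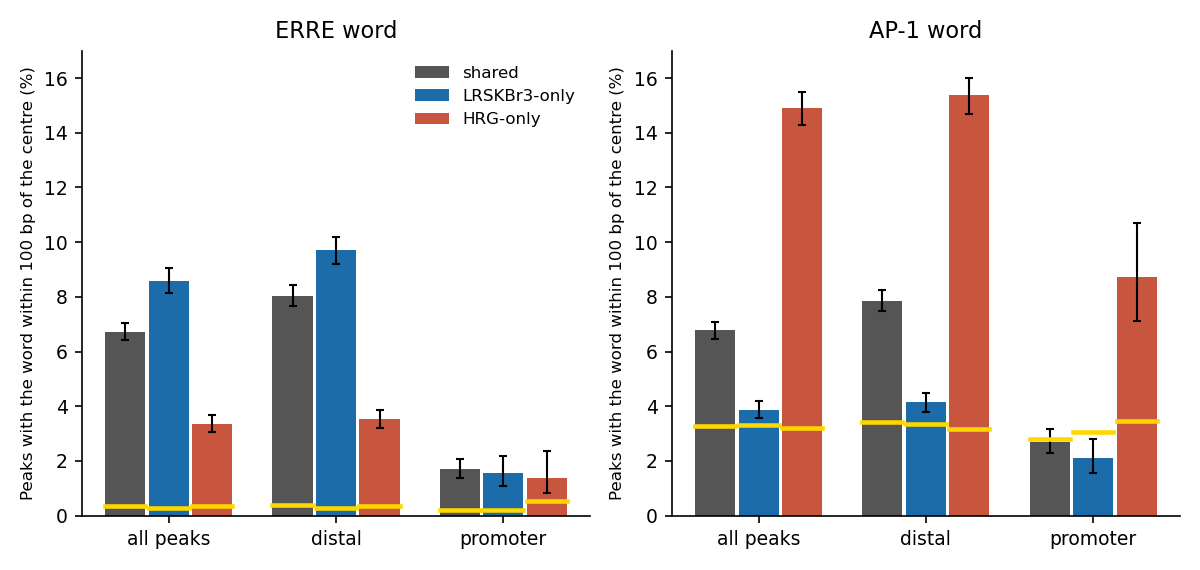
The share of peaks (y axis, %) with the ERRE word (left) or the AP-1 word (right) within 100 bp of the centre is plotted for all, distal and promoter peaks of the shared (grey, LRSKBr3 peaks), LRSKBr3-only (blue) and HRG-only (red) classes. Black bars are 95% Wilson intervals and yellow lines the flanks, and AP-1 reaches 15.4% in distal HRG-only peaks while the ERRE reaches 9.71% in distal LRSKBr3-only peaks.

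The ERRE order belonged to distal peaks, whereas the AP-1 excess of HRG-only peaks was present in promoters as well. Among distal peaks, the ERRE was at 9.71% of LRSKBr3-only, 8.05% of shared and 3.52% of HRG-only peaks. Promoter peaks held it in 1.55% (1.09–2.19), 1.7% (1.38–2.08) and 1.39% (0.812–2.36), values whose intervals overlap. AP-1 was at 8.74% (7.1–10.7) of HRG-only promoter peaks, against 2.7% (2.29–3.17) of shared and 2.1% (1.56–2.82) of LRSKBr3-only promoter peaks, whose intervals overlap and which lay below their flanks of 2.82% and 3.07%. Both words were centred, apart from AP-1 in LRSKBr3-only peaks, which was nearly flat. In 50 bp bins, AP-1 in HRG-only peaks rose from 0.909% and 0.625% at the outer edges to 4.57% next to the centre, while in LRSKBr3-only peaks the highest of all bins held 1.1%. The ERRE reached 2.79% of LRSKBr3-only and 1.2% of HRG-only peaks per bin.

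**Figure D3:**
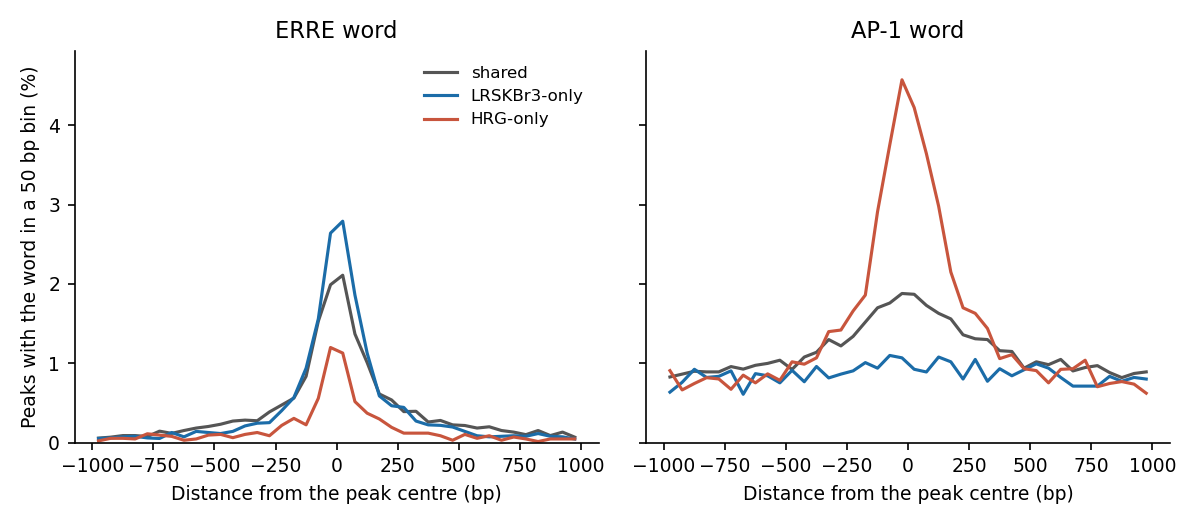
The share of peaks (y axis, %) with the ERRE word (left) or the AP-1 word (right) in each 50 bp bin is plotted against the distance from the peak centre (x axis, bp) for shared (grey), LRSKBr3-only (blue) and HRG-only (red) peaks. AP-1 forms a summit of 4.57% in HRG-only peaks and is nearly flat in LRSKBr3-only peaks, whose ERRE summit is 2.79%.

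AP-1 words also occur in Alu repeats, and those followed by NN and CCTGTA on their own strand were counted as Alu-like, a step chosen after the sequences were seen. They were 6.01% of AP-1 words at the centres of HRG-only peaks, close to 5.47% in the flanks, and 1.43% at shared centres. Without them, 13.9% (13.3–14.6) of HRG-only, 6.68% of shared and 3.82% of LRSKBr3-only peaks still held AP-1. Of the other words, each read on both strands, some differed between the classes with the share of promoters. The ETS word CCGGAAG was at 3.36% of shared, 2% of LRSKBr3-only and 1.16% of HRG-only peaks, but at 1.49%, 0.994% and 0.835% of distal peaks. The TEAD word ACATTCC was at 5.24% (4.89–5.61) of LRSKBr3-only and 4.03% (3.7–4.4) of HRG-only peaks, and the RUNX word TGTGGTTT at 2.2% of HRG-only and 1.39% of LRSKBr3-only peaks, over flanks of 1.67% and 1.47%. The longer word TGACTCAGC of NFE2L2 and small MAF factors, which contains the AP-1 word, was at 1.19% of HRG-only and 0.35% of LRSKBr3-only peaks. The GATA word AGATAAG was near its flanks in each class, at 2.22% of HRG-only and 2.92% of LRSKBr3-only peaks over flanks of 2.33% and 2.81%.

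The AP-1 share of HRG-only peaks grew with peak score, and the ERRE share of LRSKBr3-only peaks fell with it. From the weakest to the strongest quartile of the HRG list, HRG-only peaks held AP-1 in 12.1%, 14.7%, 20.4% and 26.3% (22.6–30.4) of cases, while shared HRG peaks went from 5.84% to 8.12%. LRSKBr3-only peaks held the ERRE in 9.8%, 8.38%, 6.82% and 3.19% (1.97–5.11) from the weakest to the strongest quartile of their list. In the strongest quartile they were thus below the shared LRSKBr3 peaks, at 6.03% (5.56–6.52), and the higher ERRE share of LRSKBr3-only over shared peaks rested on peaks of low score. HRG-only peaks held the ERRE in 3.34%, 3.29%, 3.13% (2.46–3.98) and 5.18% (3.53–7.53) from the weakest to the strongest quartile. The higher ERRE share of LRSKBr3-only over HRG-only peaks was thus seen in every quartile but the strongest. With the 20000 strongest peaks of each list it was present, at 6.83% (6.24–7.48) against 4.86% (4.36–5.41). Words were sought around the midpoint of a peak. Of LRSKBr3-only peaks, 234 were at least 5 kb wide, and the part of width in these shares was not tested. In the 2 weakest quartiles, shared LRSKBr3 peaks held AP-1 in 10.2% and 8.17%, against 4.25% and 3.4% of LRSKBr3-only peaks of the same quartiles.

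The lists made without ligand or drug placed most HRG-only sites outside both, and a larger share of LRSKBr3-only sites inside at least 1 of them. Of HRG-only peaks, 10405 (84.4%, 83.8–85.1) had neither a vehicle nor a pSKBr3 peak, and of LRSKBr3-only peaks 8515 (58.4%, 57.6–59.2). Of the shared peaks, 12994 (51.6%, 50.9–52.2) were in both. LRSKBr3-only peaks overlapped the vehicle list in 33.2% (32.5–34) and the list of their own parental cells in 18.3% (17.7–19). With the 20000 strongest peaks of each list this order turned, to 44.8% in vehicle and 47.4% in pSKBr3, the vehicle list being the longer of the pair with 32183 peaks. HRG-only peaks overlapped the vehicle list in 11.8% (11.2–12.3) and the pSKBr3 list in 6.42% (6–6.87), and among the 20000 strongest peaks of each list in 21.2% and 20.8%, which leaves little gap.

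**Figure D4:**
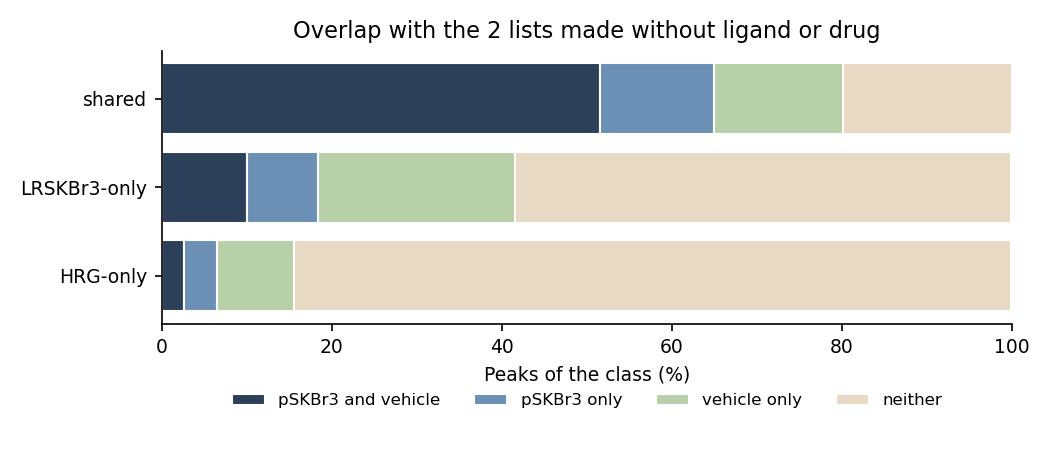
Each bar divides the shared (LRSKBr3 peaks), LRSKBr3-only or HRG-only peaks (x axis, % of the class) by their overlap with the pSKBr3 and SKBr3 vehicle lists. Peaks in neither list are 19.9% of shared, 58.4% of LRSKBr3-only and 84.4% of HRG-only peaks.

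The motif contrast was also present where neither of those lists had a peak. There, AP-1 was at 15.1% (14.4–15.8) of HRG-only and 4.11% (3.71–4.55) of LRSKBr3-only peaks, and the ERRE at 2.8% (2.5–3.13) and 8.88% (8.29–9.5). The 5011 shared peaks with neither lay between them, with AP-1 at 8.5% (7.76–9.31) and the ERRE at 5.19% (4.61–5.84). Shared peaks with a pSKBr3 but no vehicle peak were promoter-rich and GC-rich, with 39.2% in promoters and a mean GC content of 58%. Those with a vehicle but no pSKBr3 peak were promoter-poor, with 7.3% and 46.3%. HRG-only peaks that pSKBr3 did have were 791, and they differed from the rest in carrying the ERRE in 7.21% (5.6–9.22) and AP-1 in 9.23% (7.4–11.4).

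Sites that each experiment gained over its own control list were shared less often than the sites it kept. LRSKBr3 peaks without a pSKBr3 peak numbered 20724, and 8821 of them (42.6%, 41.9–43.2) had an HRG peak, against 86% (85.5–86.5) of those with a pSKBr3 peak. HRG peaks without a vehicle peak numbered 19047, and 8175 (42.9%, 42.2–43.6) had an LRSKBr3 peak, against 92% (91.6–92.4) of those with a vehicle peak. Peaks without a control peak were also weaker, so that these shares differ in peak strength as well as in origin.

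EGF, the other ligand given to SKBr3 cells, divided the HRG-only sites. The EGF list held a peak at 3709 of them (30.1%, 29.3–30.9), and these carried AP-1 in 27.3% (25.9–28.8) and the ERRE in 5.31% (4.63–6.08). The other 8612 carried AP-1 in 9.5% (8.9–10.1) and the ERRE in 2.52% (2.21–2.87). Those with an EGF peak were also stronger, with a median percentile of 41.9 against 22.9, and the part of strength in this difference was not tested. Of LRSKBr3-only peaks, 26.7% (26–27.4) had an EGF peak, and those held AP-1 in 6.45% (5.72–7.27). In BT-474, another breast cancer line with amplified HER2 and with 1 ChIP library per condition, the list of HRG-treated cells held a peak at 50.4% of shared, 29.4% of LRSKBr3-only and 19.6% (18.9–20.3) of HRG-only peaks. BT-474 cells given vehicle had a peak at 27% of LRSKBr3-only and 14.3% of HRG-only peaks.

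Rank at shared sites was similar without being equal in the lists. Spearman's correlation of the percentiles was 0.612 over 25204 shared LRSKBr3 peaks and their strongest HRG peak, a description over sites that share libraries. The HRG percentile was more than 25 above the LRSKBr3 percentile at 3549 peaks, and the LRSKBr3 percentile was more than 25 above at 3747. The former held AP-1 in 13% (12–14.2) and lay in promoters in 13.3%, whereas the latter held AP-1 in 3.6% (3.05–4.25) and lay in promoters in 24.8%. The ERRE differed little between them, at 6% (5.27–6.83) and 6.65% (5.89–7.49).

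List-specific peaks were unevenly spread over chromosomes. HRG-only peaks were 50% (48–52) of HRG peaks on chromosome 7 and 47.2% (43.8–50.7) on chromosome 13, against 23.9% on chromosome 22. Among windows of 5 Mb with at least 40 peaks, the median share of HRG-only peaks was 30.8%, and the highest was on chromosome 7 from 115 to 120 Mb, where 53 of 56 HRG peaks had no LRSKBr3 peak. Vehicle and EGF peaks overlapped 5.36% and 12.5% of the HRG peaks there. LRSKBr3-only peaks were 46.6% (44–49.1) of LRSKBr3 peaks on chromosome 4 and 46.3% (43.6–49) on chromosome 20. On chromosome 20 from 45 to 50 Mb, 108 of 159 LRSKBr3 peaks lacked an HRG peak, and 52.2% of the 159 had a pSKBr3 peak while 23.3% had a vehicle peak. Wide peaks clustered likewise: 111 of the 234 LRSKBr3-only peaks of at least 5 kb were on chromosome 20, which held 4.12% of the class, and 98 of 259 wide HRG-only peaks were on chromosome 7. The part of copy number in these regions was not tested. Without chromosomes 7, 13, 17 and 20, an alternative chosen after seeing the data, AP-1 was at 16.1% of HRG-only and 3.85% of LRSKBr3-only peaks.

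The LRSKBr3-only peaks of highest score were ranked with ties given to the wider peak. The top 5 promoter peaks were those of LGALS3BP and DNAJC7 on chromosome 17, UQCC1 on chromosome 20 and MKLN1 and ARPC1B on chromosome 7, with widths from 2525 to 9389 bp. UQCC1 is an assembly factor of respiratory complex III, DNAJC7 a co-chaperone and ARPC1B a subunit of the actin-nucleating Arp2/3 complex. The UQCC1 peak, from 33997793 to 34000803, had percentile 96.3 and was also called in the pSKBr3, vehicle and EGF lists. The top 5 distal peaks, nearest to TBC1D16, SOGA1, HMGB1P1, CCR7 and TIMP2, lay on chromosomes 17 and 20 and were all called in pSKBr3. They were the widest distal peaks among the 7 LRSKBr3-only peaks tied at a score of 3100, so that their widths of 6416 to 15825 bp follow in part from the ranking. None of these 10 peaks held the ERRE word near its centre, and 1 held the AP-1 word. Among all LRSKBr3-only peaks, the ERRE was at 1.55% of promoter and 9.71% of distal peaks, and AP-1 at 2.1% and 4.14%. With shares this low, counts among 10 peaks cannot set them apart from their class. The window searched around the midpoint was also a small part of peaks this wide.

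The 5 HRG-only promoter peaks and the 5 distal peaks of highest score were all called on EGF as well. The top 5 promoter peaks belonged to CPNE2, NAT9, PAX8, CCL15 and TRIM2, with percentiles from 86 to 93.5 and widths from 1270 to 2450 bp. The NAT9 and CCL15 peaks held the AP-1 word, and the TRIM2 peak alone among these was also in the vehicle list. PAX8 encodes a paired box transcription factor and CCL15 a chemokine. The top distal peaks had GFRA2, IQCJ-SCHIP1, ABR, SIAH3 and SELPLG as nearest genes, and those of IQCJ-SCHIP1 and SIAH3 were also in pSKBr3, so that LRSKBr3 alone of the lists from SKBr3 and its derivatives lacked them. Scores tied widely among shared peaks, 951 of which stood at 3100 or above, so that the order there carries little meaning. Ranked by the mean percentile in both lists and then by width, the first shared promoter peaks were those of NDST1, SLC25A3, FAHD1, CD59 and SYT12. SLC25A3 is the mitochondrial phosphate carrier, and the peak of the mitochondrial enzyme FAHD1 held the ERRE word.

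Genes within reach of a peak were mostly near peaks of both lists, for which any peak of each list within 20 kb sufficed. Of 19807 protein-coding genes, 11433 (57.7%) had a start within 20 kb of a peak centre in both lists, 1868 (9.43%) in the LRSKBr3 list only, 1035 (5.23%) in the HRG list only and 5471 (27.6%) in neither. A shared peak was within reach of 10937 of the genes near both (95.7%, 95.3–96), while 496 had different peaks in the lists. Of the genes near LRSKBr3 peaks only, 33.3% (31.2–35.5) were near a pSKBr3 peak and 31.6% (29.5–33.7) near a vehicle peak. Of those near HRG peaks only, 38.5% (35.5–41.5) were near an EGF peak and 22.3% (19.9–25) near a vehicle peak.

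**Figure D5:**
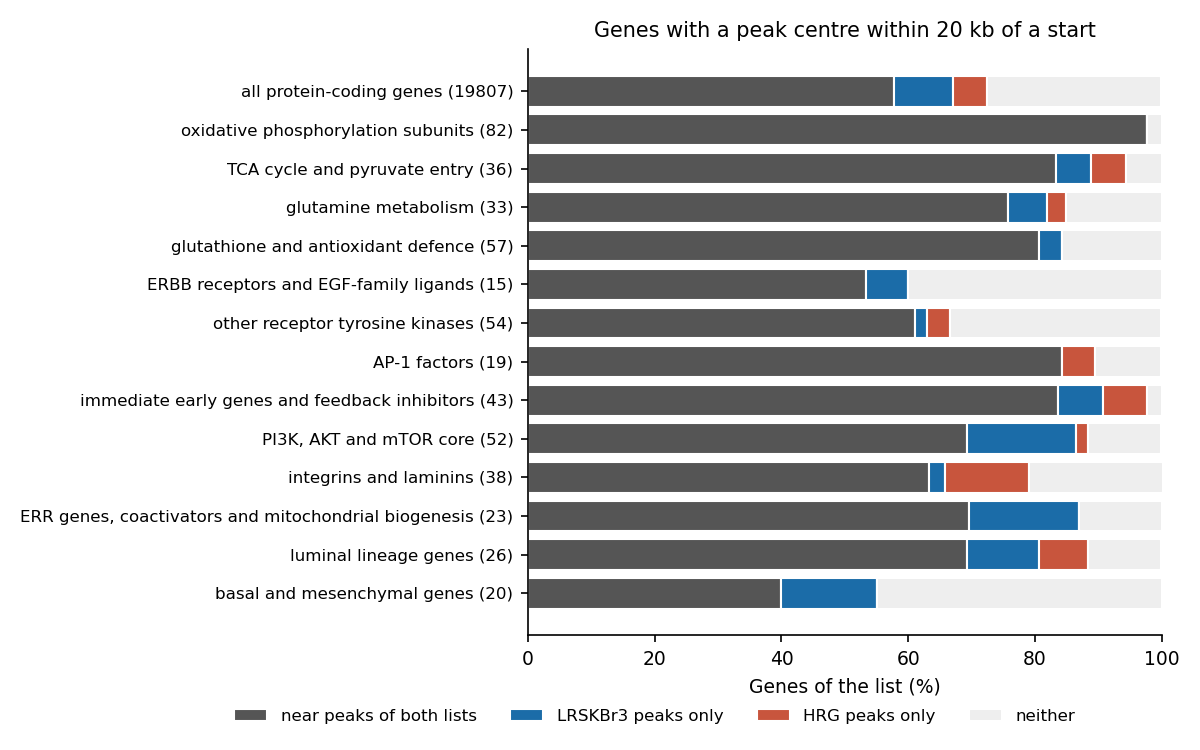
Each bar divides the genes of a list (x axis, % of matched genes, with their number in brackets) by whether a start lay within 20 kb of a peak centre in both lists (dark grey), LRSKBr3 only (blue), HRG only (red) or neither (light grey), with all 19807 protein-coding genes on top. Oxidative phosphorylation subunits have 97.6% near both, PI3K, AKT and mTOR genes have 17.3% near LRSKBr3 only, and integrins and laminins 13.2% near HRG only, beside 57.7%, 9.43% and 5.23% of all genes.

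Mitochondrial energy genes were near peaks of both lists. Of 82 subunits of oxidative phosphorylation, 80 (97.6%, 91.5–99.3) were near both and none near a single list, which allows up to 4.48% by the same interval, beside 57.7% of all genes near both. NDUFA5 and NDUFB9 were near neither, though NDUFA5 had a pSKBr3 peak 1010 bp from a start at percentile 92.1. The strongest peak near these 80 genes had a median percentile of 96.7 in LRSKBr3 and 94.2 in HRG, against 78.1 and 73.8 over all genes near both. NDUFA1, a complex I subunit, had a peak at its promoter at percentile 98.7 in LRSKBr3 and 98.6 in HRG. The members with a gap over 25 were NDUFB10, at percentile 80.6 in LRSKBr3 and 52.7 in HRG through strongest peaks that did not overlap, and ATP5IF1, the inhibitor of ATP synthase, at 40.8 and 75.6. In the TCA cycle and pyruvate entry, 30 of 36 genes (83.3%, 68.1–92.1) were near both, beside 57.7% of all genes. PDK1, which inhibits pyruvate dehydrogenase, and PCK1, which makes phosphoenolpyruvate, were near LRSKBr3 peaks only. PDP1, the phosphatase that reactivates pyruvate dehydrogenase, and ME1, cytosolic malic enzyme, were near HRG peaks only. Each pair was 5.56% (1.54–18.1) of the list, beside 9.43% of all genes near LRSKBr3 only and 5.23% near HRG only. The strongest peak near PDP2 stood at percentile 71.3 in LRSKBr3 and 25.4 in HRG.

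Glutamine and glutathione genes were mostly near both lists. In glutamine metabolism 25 of 33 genes (75.8%, 59–87.2) were near both, beside 57.7% of all genes, GLUD1 and the transporter SLC38A5 near LRSKBr3 only and PSAT1, of serine synthesis, near HRG only. The single-list shares were 6.06% (1.68–19.6) and 3.03% (0.537–15.3), beside 9.43% and 5.23% of all genes. The GLUD1 peak stood 804 bp from a start at percentile 23.2, and neither vehicle nor pSKBr3 had a peak in reach. GLS2, a mitochondrial glutaminase, had percentiles of 67.3 in LRSKBr3 and 39.7 in HRG, and GFPT2, of hexosamine synthesis, of 31.4 and 75 through peaks that did not overlap. Of 57 matched genes of glutathione and antioxidant defence, 46 (80.7%, 68.7–88.9) were near both, beside 57.7% of all genes. GSTT2B and SOD3 (3.51%, 0.968–11.9) were near LRSKBr3 only, beside 9.43%. None was near HRG only, which allows up to 6.31%, beside 5.23%. SOD3, the extracellular superoxide dismutase, had a weak peak on chromosome 4 from 24796535 to 24797397, 229 bp from a start, at percentile 13.1, and was near no peak of the vehicle, pSKBr3, EGF or HRG lists. GSS, glutathione synthetase, had a peak 903 bp from its start at percentile 78.7 in LRSKBr3, whereas its HRG peak lay 16340 bp away at percentile 19.6 and did not overlap it. GSR, glutathione reductase, had its strongest peak at percentile 88.6 in LRSKBr3 and 85.5 in HRG, at places that did not overlap. GPX1, a glutathione peroxidase, had a peak in reach at percentile 80.6 in LRSKBr3 and 86.8 in HRG.

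Receptor genes showed no single direction. Of 15 ERBB receptors and EGF-family ligands, 8 (53.3%, 30.1–75.2) were near both, beside 57.7% of all genes, and 6 (40%, 19.8–64.3) near neither, beside 27.6%, ERBB2 being among those near neither. ERBB3, the HRG receptor, had a promoter peak with a score of 3100 in both lists, 199 bp from a start in LRSKBr3 and 202 bp in HRG. EGFR had percentiles of 58.7 in LRSKBr3 and 36.7 in HRG, and among the ligands BTC of 93.6 and 46.4 and HBEGF of 42.5 and 76.5, the strongest peaks of these 2 ligands not overlapping. NRG3 (6.67%, 1.19–29.8) was near LRSKBr3 only, beside 9.43% of all genes. Of 54 other receptor tyrosine kinases, 33 (61.1%, 47.8–73) were near both, beside 57.7% of all genes, DDR2 near LRSKBr3 only and MUSK and PDGFRA near HRG only. The single-list shares were 1.85% (0.328–9.77) and 3.7% (1.02–12.5), beside 9.43% and 5.23% of all genes. Among those near both, the percentile was more than 25 higher in LRSKBr3 at 6 of 33 kinases and in HRG at 4, beside 1451 and 783 of the 11433 genes near both. MERTK and AXL, kinases of the TAM family, had percentiles of 71.4 and 45.2 in LRSKBr3 and 10.7 and 14.4 in HRG, whereas TYRO3, of the same family, had 65 and 81.2. AATK and RYK stood at 55.8 and 31.9 in LRSKBr3 and at 93.1 and 66.2 in HRG.

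AP-1 and immediate early genes were largely near both lists, with members ranked higher in either. Of 19 AP-1 genes, 16 (84.2%, 62.4–94.5) were near both, beside 57.7% of all genes. Only ATF7 (5.26%, 0.935–24.6) was near HRG alone, beside 5.23%. FOS stood at percentile 97.4 in LRSKBr3 and 98.6 in HRG, JUN at 66.1 and 79.1, and FOSB at 44.1 and 87.3. Of 43 immediate early genes and feedback inhibitors, 36 (83.7%, 70–91.9) were near both, beside 57.7% of all genes. EGR1, DUSP10 and LRIG1 were near LRSKBr3 only and KLF10, DUSP7 and SPRY2 near HRG only. Either share was 6.98% (2.4–18.6), an interval that holds the 9.43% and 5.23% of all genes. EGR1 had a peak at percentile 6.11 in LRSKBr3 and at 54.8 in pSKBr3. DUSP7, a phosphatase that inactivates ERK, had its HRG peak at percentile 75.5 and an EGF peak at 80.4. SPRY2, an inhibitor of receptor signalling, had an HRG promoter peak at percentile 64.8. Among those near both, PHLDA1 stood at 6.05 in LRSKBr3 and 76.3 in HRG and SPRED1 at 10 and 63, whereas EGR2 stood at 79 and 41.5 and NR4A2, through strongest peaks that did not overlap, at 62.6 and 11.8. Genes near both with a gap over 25 were named after their values were seen.

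The PI3K, AKT and mTOR genes included 9 of 52 (17.3%, 9.38–29.7) near LRSKBr3 peaks only, beside 9.43% of all genes, a share inside that interval. They were PIK3CA and PIK3CB, which encode catalytic subunits, AKT1, MAPKAP1, ULK1, DDIT4, DDIT4L, RRAGC and PRKAA1. PRKAA2 alone (1.92%, 0.34–10.1) was near HRG only, beside 5.23% of all genes. The strongest LRSKBr3 peaks of the 9 genes were of modest rank, from percentile 7.97 at RRAGC to 49.9 at ULK1, apart from DDIT4, an inhibitor of mTOR, at 90.6. The AKT1 peak on chromosome 14 lay 1295 bp from a start at percentile 37.7, with no vehicle, pSKBr3 or EGF peak in reach. MAPKAP1, DDIT4, DDIT4L, ULK1 and PIK3CA were near a vehicle or pSKBr3 peak. Of 38 integrins and laminins, 24 (63.2%, 47.3–76.6) were near both, beside 57.7% of all genes. ITGAE (2.63%, 0.466–13.5) was near LRSKBr3 only, beside 9.43%, and 5 genes (13.2%, 5.75–27.3) were near HRG only, beside 5.23%. These were ITGA2, ITGAD, ITGAX, LAMA2 and LAMA4, of which ITGAD and ITGAX lie on chromosome 16, and each of the 5 was also near an EGF peak, beside 38.5% of all genes near HRG peaks only. LAMA4, a laminin chain, had an HRG peak from 112524804 to 112525913 on chromosome 6 at percentile 72.8 and no LRSKBr3 peak in reach. Among those near both, the gap was over 25 towards HRG at 3 genes and towards LRSKBr3 at 1, beside 783 and 1451 of the 11433 genes near both. ITGA1 stood at percentile 38.6 in LRSKBr3 and 75.9 in HRG, and LAMB1 at 93.9 and 65.5, while the median over the 24 genes was 77.9 in LRSKBr3 and 77 in HRG.

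Genes of the ERR axis and of breast lineage completed the lists. Of 23 ERR genes, coactivators and factors of mitochondrial biogenesis, 16 (69.6%, 49.1–84.4) were near both, an interval that holds the 57.7% of all genes. ESRRB, NCOA1, NCOA3 and NRF1 were near LRSKBr3 only and none near HRG only. These 4 genes are 17.4% (6.98–37.1), an interval that holds the 9.43% of all genes, and none of 23 allows up to 14.3%, beside 5.23%. NCOA1 and NCOA3 encode steroid receptor coactivators, and their LRSKBr3 peaks stood at percentiles 59.9 and 51.8. ESRRA had its strongest peak at a score of 3100 in LRSKBr3, from 64070433 to 64073162, and in HRG, from 64070140 to 64074779, and both spanned the ERRE word shown above. Of 26 luminal genes, 18 (69.2%, 50–83.5) were near both, an interval that holds the 57.7% of all genes. ESR1, TFAP2B and KRT19 were near LRSKBr3 only and GATA3 and TFF3 near HRG only, shares of 11.5% (4–29) and 7.69% (2.14–24.1) beside 9.43% and 5.23% of all genes. The ESR1 peak, at the gene of oestrogen receptor α, was among the weakest of the LRSKBr3 list at percentile 2.04, and the GATA3 promoter peak had percentile 51.9 in HRG. TFF1, an oestrogen-responsive gene, was near both lists through different peaks, at 43783335 to 43784268 on chromosome 21 in LRSKBr3, percentile 11.9, and at 43786450 to 43788009 in HRG, percentile 65.6. The HRG peak was 586 bp and the LRSKBr3 peak 2842 bp from a start. Of 20 basal and mesenchymal genes, 8 (40%, 21.9–61.3) were near both, beside 57.7% of all genes, KRT15, KRT17 and SNAI1 (15%, 5.24–36) near LRSKBr3 only, beside 9.43%, and 9 (45%, 25.8–65.8) near neither, beside 27.6%.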

How the data were processed

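ERRα ChIP-seq had been done in SKBr3 and its lapatinib-resistant derivative, among other conditions. The authors aligned reads to hg19 (GRCh37) with BWA 0.5.9 and ran MACS for peak calling, with 1e-05 as the P cutoff (SAMtools 0.1.18 is in the submitters' processing notes). They deposited 1 list per condition, pooled over 2 ChIP libraries except in BT-474, with a score for each peak, −10 log10 of its P value, from 50 to 3233. Depth is unknown, and a score was ranked only within its list.

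Peaks overlapping by 1 bp were shared. Motif words were sought on both strands within 100 bp of each centre and in flanks 2 kb away. Gene starts were those of protein-coding transcripts in the GENCODE annotation lifted to GRCh37. The text names the nearest genes of the 5 strongest promoter and distal peaks of each class, members of 13 lists by class, and genes the study names, apart from items not reported here. Members and lists were chosen with earlier results of these data known. Functions were tested on simulated data. Python 3.11.15, pandas 2.3.3, scipy 1.17.1 and pysam 0.24.0 were used.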

Additional observations from a re-analysis of the deposited data

How the results depend on the processing

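The 3 classes kept their order of promoter, ERRE and AP-1 shares under the 9 planned and 2 added alternatives, wherever these bear on them, in point values. LRSKBr3-only and shared peaks were not resolved in their ERRE share with 50% of both peaks overlapping (7.79%, 7.4–8.2, against 7.1%, 6.77–7.44), with centres within 500 bp (7.52%, 7.14–7.91, against 7.3%, 6.96–7.65), or with the 20000 strongest peaks (6.83%, 6.24–7.48, against 6.42%, 6.02–6.84). Values that moved beyond their interval, or counts beyond 1.5 times, follow as shared, LRSKBr3-only and HRG-only unless named. With 50% of both peaks overlapping, 56.9% of LRSKBr3 and 60.8% of HRG peaks were shared. Promoters were then 14.6% of LRSKBr3-only and 9.07% of HRG-only peaks, the ERRE was at 7.1% and 7.79% (shared, LRSKBr3-only), AP-1 at 13.6% of HRG-only peaks, pSKBr3 overlap 58.1%, 19.6% and 8.2%, vehicle overlap 31.8% and 13.7% (specific classes) and EGF overlap 69.6% of shared peaks. With centres within 500 bp, 54.3% and 58.1% of peaks were shared, promoters were 14.9% and 9.89% of the specific classes and AP-1 13% of HRG-only peaks, the ERRE 7.3% and 7.52% (shared, LRSKBr3-only), pSKBr3 overlap 60.8%, 21.5% and 10.5%, vehicle 64.6%, 31.3% and 13.9%, and EGF 68% (shared) and 29% (HRG-only). With P at most 1e-10, 9453 LRSKBr3-only and 7086 HRG-only peaks remained, 64.3% and 70.3% of peaks were shared, promoters were 22.4%, 18.3% and 9.58%, the ERRE 7.33% of LRSKBr3-only and 4.23% of HRG-only peaks and AP-1 16.5% (HRG-only), pSKBr3 overlap 64.2% (shared) and 5.93% (HRG-only), vehicle 67.7%, 34.2% and 14.8%, and EGF 25.1% and 38.1% of the specific classes. With the 20000 strongest peaks of each list, 6322 and 6461 peaks were list-specific, 68.4% and 67.7% were shared, promoters were 22.9%, 21% and 10.1%, the ERRE 6.83% and 4.86% of the specific classes, AP-1 6.25% (shared) and 16.3% (HRG-only), pSKBr3 overlap 84.3%, 47.4% and 20.8%, vehicle 74.7%, 44.8% and 21.2%, and EGF 76.2%, 30.7% and 44.8%. A 5 kb promoter gave 34.7%, 24.1% and 19%. A 250 bp motif window gave the ERRE in 10.5%, 12.5% and 4.9% and AP-1 in 14.7%, 9.22% and 25.4%, and the word AAGGTCA 24.3%, 27.4% and 17.9%. Without chromosomes 7, 13, 17 and 20, added after seeing the data, 68.6% of HRG peaks were shared, the ERRE was at 9.12% of LRSKBr3-only and AP-1 at 16.1% of HRG-only peaks, pSKBr3 overlap was 64.3% and 16.8% (shared, LRSKBr3-only), vehicle 67.9% (shared) and EGF 72.6% and 32.5% (shared, HRG-only). Without Alu-like AP-1 words, also added, 13.9% of HRG-only peaks held AP-1. The numbers of genes near both lists or 1 of them stayed within 1.5 times, at 10 kb too. The cause of these shifts was not tested. No paired analysis was possible because each condition has 1 list. Unknown depth limits what an absent peak says.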
